A study of Homo sapiens with 4 samples.

Results

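The mRNAs described here encode the proteins that package and splice pre-mRNA: the heterogeneous nuclear ribonucleoproteins (hnRNPs), the SR proteins and the core of the spliceosome. They were taken by gene symbol, as the HNRNP, SRSF, SRRM, SF3A, SF3B, SNRP, PRPF and U2AF genes of the table, without pseudogenes and without 1 HNRNP gene that is not described here, and no measured value entered that choice. This gave 76 of the 12838 gene symbols. They comprised 24 hnRNP, 14 SR and SRRM, 9 SF3A and SF3B, 12 SNRP, 13 PRPF and 4 U2AF genes.

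The study immunoprecipitated EXOSC10, an exoribonuclease of the nuclear RNA exosome, and sequenced the RNA that came with it. The cells were LM2-4175, a subline of MDA-MB-231 breast carcinoma cells selected for metastasis to the lung. All 4 groups carried an inducible construct of CerS4, a ceramide synthase, and all were kept under puromycin and hygromycin. The groups were EXOSC10 immunoprecipitates of cells given doxycycline at 5 µg/mL for 48 h, EXOSC10 immunoprecipitates of untreated cells, and the 2 control IgG immunoprecipitates of the same kinds of cells. Each group had 1 library, so a difference between single libraries has no replicate check and is described by its size only. No doxycycline-treated line without the construct was among the groups, so an action of doxycycline itself and one of CerS4 cannot be told apart. CERS4 was not analysed here, so its induction was not checked. The submitters name the comparison of EXOSC10-bound mRNA with and without doxycycline as the primary one, in a study of PD-L1, Caprin-1 and mRNA degradation under altered lipid metabolism.

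hnRNPs coat nascent transcripts and often repress nearby splice sites, while SR proteins bind exonic enhancers and recruit the splicing machinery through their arginine and serine rich domains. The small nuclear ribonucleoproteins, built on rings of Sm proteins, and their PRPF partners assemble on the intron, with U2AF and the SF3A and SF3B complexes recognising its 3′ end and branch point. Many hnRNP and SR protein genes control their own level through alternatively spliced forms that carry premature stop codons and are degraded. EXOSC10 trims and degrades many classes of nuclear RNA.

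The doxycycline EXOSC10 library held 5511214 estimated reads and the untreated EXOSC10 library 4233595, against 7575134 for IgG with doxycycline and 3723297 for IgG without. Ribosomal RNA genes took 56.3% to 83.8% of them, which left between 1023362 and 2408179 other reads per library. Levels below are counts per 1000000 reads (CPM), brought to a common scale with TMM, the trimmed mean of M values, whose factors spanned 0.451 to 2.55. All 6 markers of a mesenchymal breast carcinoma line had an entry, led by VIM with 2079 to 4396 reads, and none of 4 blood cell markers had one. Of 6 luminal or epithelial markers, 4 had an entry, and they summed to 781 and 312 reads in the doxycycline and untreated EXOSC10 libraries, against 131 and 135 reads in the doxycycline and untreated IgG libraries. Of 4 fibroblast and endothelial markers, 2 had an entry, with 96 and 57 reads in the EXOSC10 libraries against 24 and 17 reads in the IgG libraries in the same order. The part of these other genes in the results below was not tested. In bulk libraries such as these, fewer cells and less RNA per cell cannot be told apart. No input RNA was among the groups. A different level of an mRNA in the cells and a different association with EXOSC10 therefore cannot be told apart either.

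The first transcribed bases of an mRNA are one sequence feature that the symbols do not fix. In ribosomal protein mRNAs they form the terminal pyrimidine tract, a C followed directly by other pyrimidines, through which translation of these mRNAs is regulated. RefSeq promoter sequence of GRCh38.p14 was found for 67 of the 76 genes, and a C at the annotated start followed by at least 4 further C or T was found in 4 of the 67 (5.97%). The same run stood at the start of 38 of 59 ribosomal protein genes (64.4%) and of 1429 of all 35116 promoters (4.07%). The members that hold it are shown with HNRNPH2 and SRRM2, which hold none and of which the first had a low EXOSC10 to IgG ratio, with the limit on its reads given below, and the second a ratio near 0. Each window runs 5′ to 3′ from 10 bases before the annotated start to 20 bases from it, and capitals mark the run.
SRSF9, chr12:120469729-120469758, minus strand: ctccgccgacCCCTTCgcttccgctccgcg
SNRPA, chr19:40751193-40751222, plus strand: ctcgagagttCTCTCCgcacgcgggctgga
SF3A2, chr19:2236814-2236843, plus strand: cccggaagtgCTTTCTTTgcccgccgttcg
HNRNPA0, chr5:137754344-137754373, minus strand: gttcagcggcCTCTTTgtgtggtgcccaga
HNRNPH2, chrX:101408212-101408241, plus strand: tcacgtgattactcgcttacgtgagcagaa
SRRM2, chr16:2752628-2752657, plus strand: gcagttagtcgtgctgacgtgcagcgcggc
The absence of these letters says only that the run does not start at this annotated position.

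EXOSC10 immunoprecipitates held less of most of these mRNAs than IgG immunoprecipitates did, relative to the TMM scaling. A call of higher or lower needed at least 100 reads over the 2 libraries and scaled levels that differed at least 2-fold. In doxycycline-treated cells 65 of the 76 members reached that minimum, of which 41 were lower and 2 higher in the EXOSC10 library, with a median log2 ratio of -1.35. Among all 6279 genes that reached it, 27% were lower and 13.3% higher, with a median of 0.01. In untreated cells 58 members reached the minimum, of which 34 were lower and 1 higher, with a median of -1.14. Over all 3622 genes there, 36.9% were lower and 4.94% higher, with a median of -0.48. These directions hold relative to the TMM scaling only: the factors of a scaling to total reads shift log2 ratios up by 2.50 in doxycycline-treated and by 0.82 in untreated cells, and those of a scaling to reads outside ribosomal RNA by 1.07 and 1.05. The pseudocount makes the shift smaller for genes with few reads. The distance of the members' median from that of all genes hardly depends on it, and ran from -1.37 to -1.34 with doxycycline over the 4 scalings tried.

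The hnRNP mRNAs had the lowest medians of the groups with more than 1 gene measured in both treatments. All 21 that reached the minimum were below the median of all genes in both treatments, and their own medians were -2.06 with doxycycline and -1.51 without. The groups were not matched for reads, and over all genes the ratio fell with reads, as described below. The mean of both ratios had a median of -1.72 over the 21. Over all genes that median was -0.95 at 1000 to 2000 reads, -1.68 at 2000 to 5000 and -1.87 at 5000 or more. The hnRNP genes were not compared band by band. With doxycycline 19 of the 21 were called lower, all but HNRNPA1 and HNRNPC, and without it 17 were. Summed with its close copy HNRNPA1L2, HNRNPA1 had ratios of -1.21 with doxycycline and -1.49 without, both past 2-fold. Its place among the exceptions thus depends on how reads were divided between these genes. HNRNPH2, which binds G-rich runs, lies at chrX:101408222-101414133 and was the lowest of the group by its own reads. It stood at 4.96 scaled CPM in the doxycycline EXOSC10 library and 12.6 in the untreated EXOSC10 library, against 46.2 with IgG after doxycycline and 65.8 with IgG in untreated cells. The EXOSC10 to IgG ratio was -3.17 on the log2 scale with doxycycline, with an exact Clopper-Pearson 95% interval of -3.65 to -2.81, and -2.37 without, with an interval of -2.82 to -1.97. Such intervals cover counting error only. With the reads of the overlapping read-through gene RPL36A-HNRNPH2 added, the ratios were -1.08 with doxycycline and -1.06 without, so the size of the difference and the rank of HNRNPH2 depend on how reads were divided between these genes.

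HNRNPL, which binds CA repeats, had 70.9 and 110 scaled CPM in the doxycycline and untreated EXOSC10 libraries, against 343 and 439 scaled CPM in the doxycycline and untreated IgG libraries. HNRNPK, a poly(C)-binding hnRNP with the most reads of any member, had 254 and 370 scaled CPM with EXOSC10, against 1513 and 1535 with IgG, in the same order of treatments. Both genes were thus at least 2-fold lower with EXOSC10 in each treatment, and no EXOSC10 value overlapped an IgG value. HNRNPC, which binds uridine tracts and lies at chr14:21209147-21269442, had the smallest mean difference of the group, with 90.8 and 67.6 scaled CPM with EXOSC10 against 117 and 118 with IgG. Its log2 ratios of -0.37 with doxycycline and -0.81 without were both inside the 2-fold limit.

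The SR and SRRM mRNAs spread more widely around medians of -1.34 with doxycycline and -0.78 without. With doxycycline 8 of 13 were lower and SRSF8 was higher, and without it 5 of 12 were lower. Of all genes tested, 27% were lower with doxycycline and 36.9% without. The SRSF8 call had a log2 ratio of 1.01 and rests on 19 reads in the doxycycline IgG library. SRSF9, at chr12:120461672-120469748, a regulator of alternative splice site choice, had 53.4 and 125 scaled CPM in the doxycycline and untreated EXOSC10 libraries, against 391 and 468 in the doxycycline and untreated IgG libraries. SRSF1, the founding SR protein, at chr17:57989038-58007246, had 127 and 215 scaled CPM with EXOSC10 against 665 and 515 with IgG. SRSF2, which like SRSF1 binds exonic enhancers, had 141 and 245 scaled CPM with EXOSC10 against 734 and 629 with IgG. In all 3 genes both EXOSC10 values lay below both IgG values. SRRM2, a large scaffold protein of nuclear speckles, at chr16:2752638-2771412, was level: 204 and 196 scaled CPM with EXOSC10 against 206 and 203 with IgG, or log2 ratios of -0.02 and -0.05. SRSF11 was also within 2-fold, with 25.9 and 22.2 scaled CPM with EXOSC10 against 30.9 and 20.5 with IgG.

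Subunits of the SF3A and SF3B complexes, which sit on the branch point, did not move together. SF3B1, the subunit that contacts the branch point and is often mutated in cancer, at chr2:197389784-197435093, had 98.8 and 131 scaled CPM in the doxycycline and untreated EXOSC10 libraries, against 753 and 524 in the doxycycline and untreated IgG libraries. Its log2 ratio of -2.93 with doxycycline was the lowest of the 9 genes. SF3B2, which binds beside the branch point, had 41.9 and 37.5 scaled CPM with EXOSC10 against 29.3 and 41.7 with IgG, and its ratios of 0.51 and -0.15 had opposite signs. SF3B3, a scaffold of the complex, had 63.7 and 50.05 scaled CPM with EXOSC10 against 106 and 60.8 with IgG. With doxycycline 4 of 9 genes were called lower, and 3 (SF3A2, SF3B2 and SF3B4) had a ratio above 0, with a median of -0.73. In untreated cells 5 of 8 were called lower and only SF3B4 had a ratio above 0, with a median of -1.26. The share of all genes called lower was 27% with doxycycline and 36.9% in untreated cells. U2AF2, which binds the polypyrimidine tract, had 83.6 and 135 scaled CPM with EXOSC10 against 293 and 397 with IgG.

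Among the SNRP mRNAs, 3 of 8 were lower with doxycycline and 2 of 6 without, where 27% and 36.9% of all genes were. Their medians were -0.79 with doxycycline and -0.43 without, against 0.01 and -0.48 for all genes. In untreated cells the SNRP median was thus not below that of all genes. SNRPD1 and SNRPE, both Sm ring proteins, were lower in each treatment. SNRPE had 6.06 and 9.13 scaled CPM in the doxycycline and untreated EXOSC10 libraries, against 27.99 and 50.8 in the doxycycline and untreated IgG libraries. SNRPD3, another Sm ring protein, had 18.6 and 23.5 scaled CPM with EXOSC10 against 31.9 and 40.5 with IgG, a difference inside the 2-fold limit in each treatment. SNRPA, the U1 small nuclear RNA binding protein, was the member called higher in untreated cells, with 18.6 scaled CPM with EXOSC10 against 8.04 with IgG, while its levels with doxycycline were 13.6 with EXOSC10 and 13.8 with IgG. Its untreated IgG value rests on 21 reads.

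The PRPF mRNAs had medians of -0.67 with doxycycline and -0.65 without, and the group held the highest member ratio with doxycycline (PRPF31) and the lowest without it (PRPF40B). PRPF40B, a U1-associated protein, had 5.68 and 5.43 scaled CPM in the doxycycline and untreated EXOSC10 libraries, against 32.3 and 34.5 in the doxycycline and untreated IgG libraries. PRPF6, which bridges the small nuclear ribonucleoproteins of the tri-snRNP, at chr20:63981132-64033100, had 26.8 and 17.9 scaled CPM with EXOSC10 against 16.4 and 19.1 with IgG. PRPF31, another tri-snRNP protein, was called higher with doxycycline, with 13.7 scaled CPM with EXOSC10 against 5.86 with IgG, and stood at 14.7 and 14.9 in untreated cells. Its doxycycline IgG value rests on 20 reads.

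**Figure D1:**
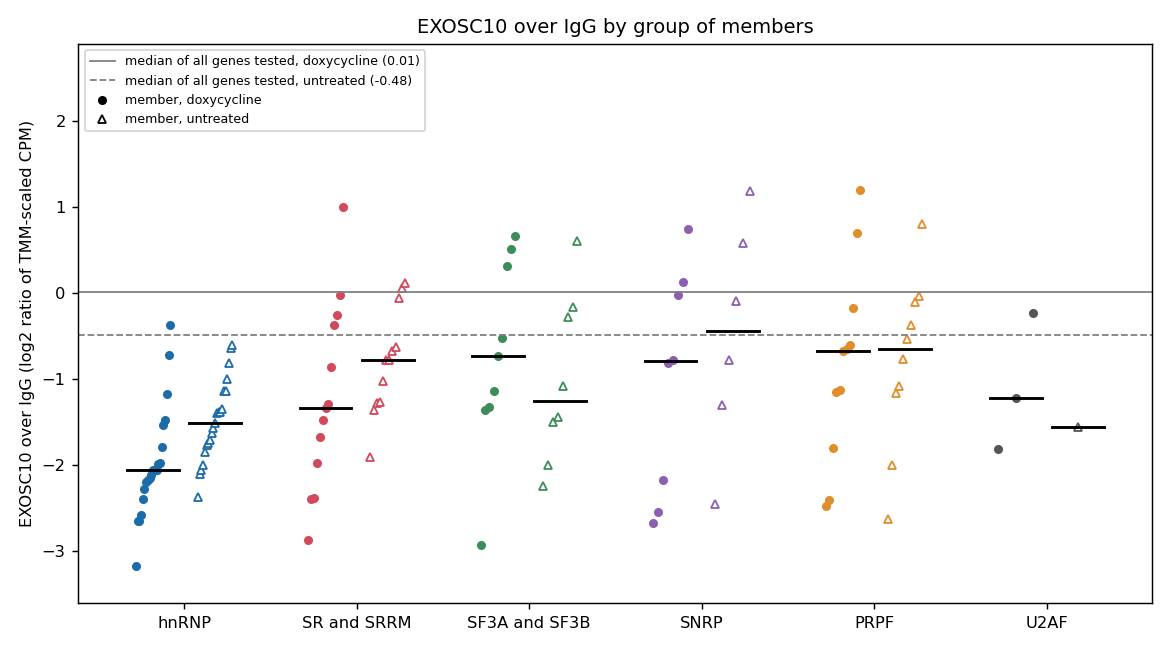
EXOSC10 over IgG as log2 ratios of scaled CPM (y axis) for the members of each group (x axis) with at least 100 reads in the 2 libraries, filled circles for doxycycline and open triangles for untreated cells. Black bars are group medians and grey lines the medians of all genes tested; all 21 hnRNP points of each treatment lie below the line of that treatment.

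The 2 ratios of a gene share no library. Over the 58 members measured in both treatments Pearson's r was 0.81 and Spearman's rho 0.81, and over 3602 genes r was 0.79 and rho 0.81. These are correlations across genes, which are not independent replicates. Of the 58 members, 32 were lower in both treatments, none was higher in both, 7 were lower with doxycycline only by the 2-fold rule and 2 were lower without it only. Of the 3602 genes, 1138 were lower in both, 32 higher in both, 323 lower with doxycycline only and 186 lower without it only. Whether the 9 members called lower in 1 treatment only differ between treatments was not tested.

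**Figure D2:**
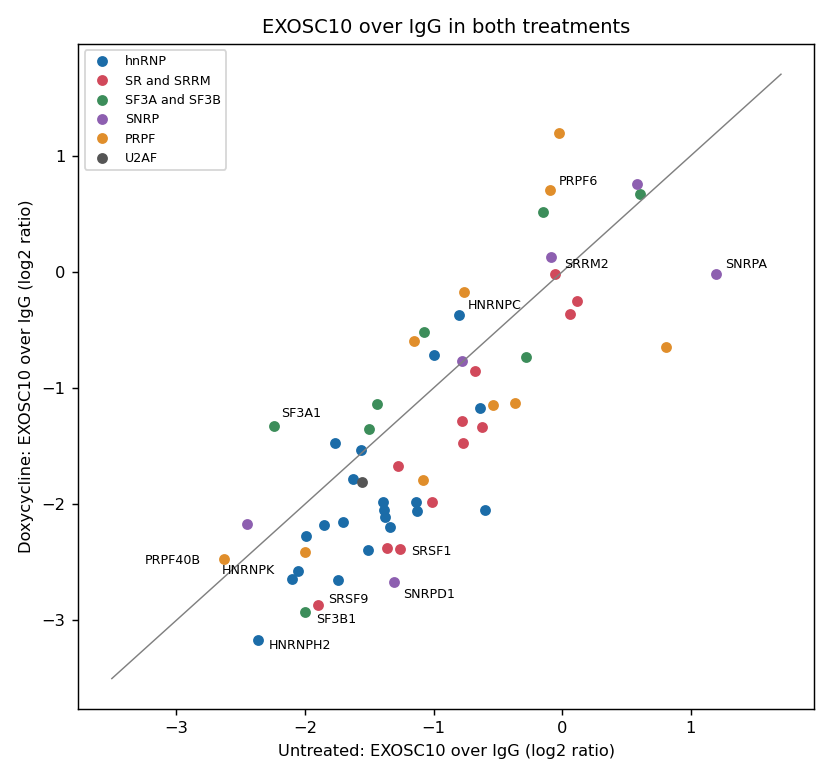
EXOSC10 over IgG in doxycycline-treated cells (y axis) against untreated cells (x axis), both as log2 ratios of scaled CPM, for 58 members coloured by group, with a line of equal values. The points run along the line, with 38 of 58 below it. Of all 3602 genes measured in both treatments (not drawn), 2027 had the lower ratio with doxycycline.

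The ratio moved with the number of reads of a gene, for members and for all genes. The mean of the 2 log2 ratios had Spearman's rho of -0.50 with total reads over 60 members and -0.36 over 5126 genes. In bands of reads chosen after the values were seen, 13 members with 2000 to 5000 reads over the 4 libraries had a median of -1.68, the same as the -1.68 of all genes in that band. The 9 members with at least 5000 reads had -1.82, against -1.87 for all genes. Members with fewer reads lay below the genes of their band: -1.41 against -0.95 at 1000 to 2000 reads (12 members), -0.84 against -0.37 at 500 to 1000 (15 members) and 0.02 against 0.17 at 200 to 500 (12 members). When only genes with at least 500 reads were kept, the median of the members in untreated cells was 0.01 above that of all genes, where it was 0.66 below it with the minimum of 100. With doxycycline the members' median was then 0.94 below that of all genes, against 1.37 below it with the minimum of 100. Gene span and the number of RefSeq transcripts had weaker relations with the ratio, with rho of -0.13 and -0.14 over the same 60 members.

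**Figure D3:**
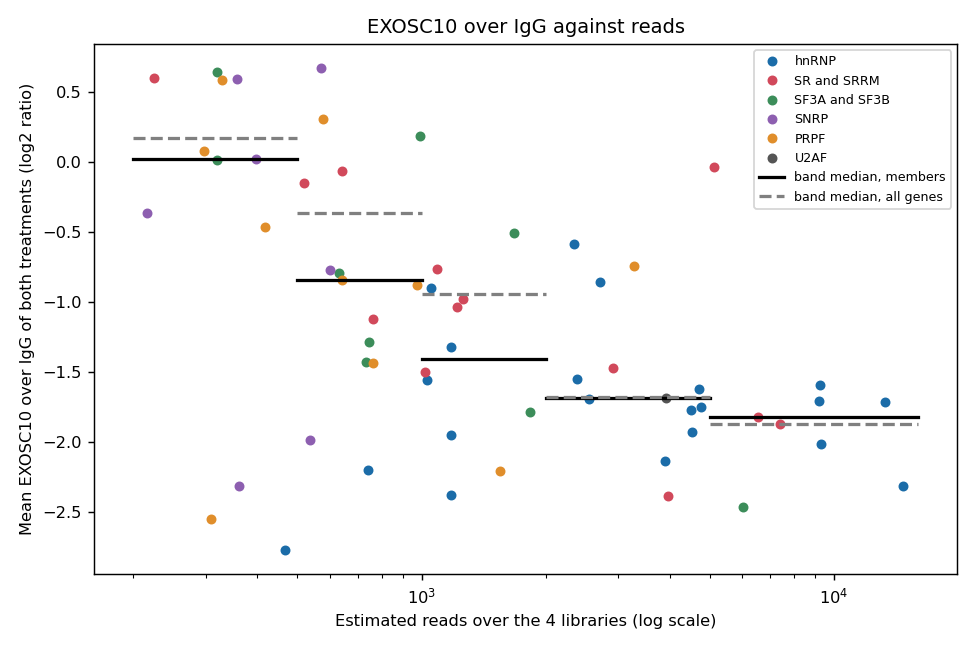
Mean EXOSC10 over IgG of both treatments (log2 ratio, y axis) against estimated reads over the 4 libraries (x axis, log scale) for members coloured by group. Solid bars are band medians of the members and dashed bars those of all genes; the bars meet at -1.68 in the band of 2000 to 5000 reads.

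An additive limma test of the antibody over all 4 libraries, with treatment as covariate, gave 38 of 70 members as lower with EXOSC10 and none as higher after Benjamini-Hochberg adjustment at 0.05. The background was 16.2% lower and 1.27% higher among 9608 genes. The background depended on depth: with only genes of at least 100 reads in every library, 919 of 1292 genes and 36 of 43 members were lower. By group, of the 70 members, 19 of 21 hnRNP, 8 of 13 SR and SRRM, 4 of 9 SF3A and SF3B, 2 of 11 SNRP, 3 of 12 PRPF and 2 of 4 U2AF genes were lower. The smallest adjusted p of a member by limma was 0.0014, as for HNRNPL (log2 difference -2.13 ± 0.26, SE), SF3B1 (-2.46 ± 0.31), SRSF9 (-2.38 ± 0.30) and the read-through gene HNRNPUL2-BSCL2 (-2.37 ± 0.27). HNRNPUL2-BSCL2, annotated as a long non-coding RNA that spans HNRNPUL2 and BSCL2 at chr11:62690262-62727384, had 19.0 and 30.3 scaled CPM with EXOSC10 against 120 and 131 with IgG. HNRNPH2 had the same adjusted p by limma, with a log2 difference of -2.77 ± 0.34 (SE) on its own reads and ratios of -1.08 and -1.06 with RPL36A-HNRNPH2 added, which was not fitted. HNRNPC had an adjusted p of 0.16 by limma. The test leaves 1 residual degree of freedom, and in it the other treatment stands in for replication. With scaling to total reads, limma gave 0 members as lower and 1 as higher, against 6 lower and 515 higher of the 9608 genes.

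Between the EXOSC10 libraries of doxycycline-treated and untreated cells, most members lay lower with doxycycline relative to the scaling, and few by 2-fold. The median of 65 members was -0.39, against -0.06 for all 6585 genes. This ratio also moved with reads. In the bands used above, from 200 to 500 reads up to 5000 or more, members had medians of -0.33, -0.09, -0.32, -0.59 and -0.54. All genes had -0.03, -0.10, -0.16, -0.31 and -0.49 in the same bands. The groups were not compared by band. Of the members 5 were called lower and none higher, where 4.19% of all genes were lower and 5.83% higher. The factors of a scaling to total reads shift these log2 ratios up by 1.04, and 14 of the 65 members are then higher and 0 lower. Of all 6585 genes, 3150 are then higher and 8 lower. By group the medians were -0.59 for hnRNP, -0.52 for SNRP, -0.35 for SR and SRRM, -0.09 for PRPF and 0.01 for SF3A and SF3B. HNRNPC was the single hnRNP of 21 above 0.

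The 5 members called lower were HNRNPH2, SRSF9, SNRPN, SNRPC and PRPF38A. HNRNPH2 held 69.6 reads in the doxycycline EXOSC10 library and 66.3 in the untreated one, a scaled log2 ratio of -1.31 with an interval of -1.85 to -0.84. With the reads of RPL36A-HNRNPH2 added, its ratio was -0.51, inside the 2-fold limit. SRSF9 held 749 and 659 reads in the same order, a ratio of -1.23 with an interval of -1.38 to -1.08. With the overlapping gene GATC added, the ratio was -1.06.

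SNRPN, an imprinted Sm protein gene at chr15:24823637-24978723, had 61.0 reads in the doxycycline EXOSC10 library and 50.6 in the untreated one, and a ratio of -1.11. With the reads of the overlapping gene SNHG14 added it was -0.65, inside the 2-fold limit. PRPF38A, needed for spliceosome activation, had 74 and 57 reads and a ratio of -1.01, and -0.68 with the reads of the overlapping gene ORC1. SNRPC, a U1 protein at chr6:34757505-34773857 with no overlapping gene in the table, had 83 and 66 reads and a ratio of -1.06 with an interval of -1.57 to -0.60. Its ratio was -0.97 with a pseudocount 5 times larger and -0.89 with scaling to reads outside ribosomal RNA, both inside the 2-fold limit, as were those of SNRPN and PRPF38A. At the other end, SRSF8 had 160 and 32 reads and a ratio of 0.88. PRPF39 had 108 and 23.5 reads and a ratio of 0.76, and SF3A2 had 205 and 46 reads and a ratio of 0.73. None of these 3 reached 2-fold. PRPF3, a tri-snRNP protein, had 247 and 149 reads and a ratio of -0.68.

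**Figure D4:**
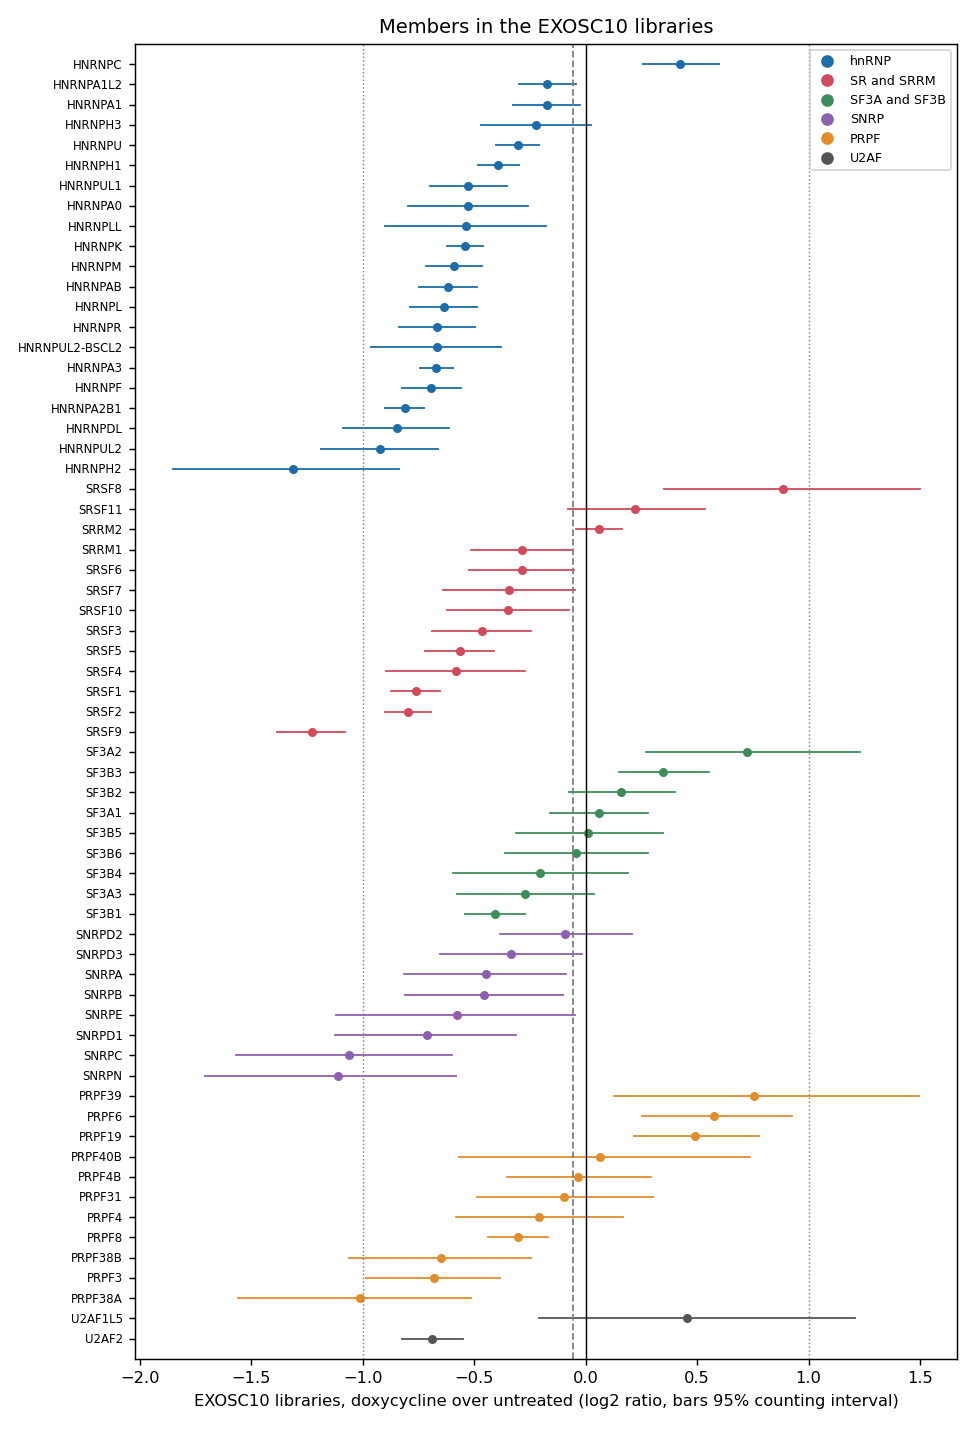
Log2 ratio of scaled CPM between the doxycycline and the untreated EXOSC10 libraries (x axis) for 64 of the 65 members with at least 100 reads in them, by group, with exact 95% counting intervals. Dotted lines mark 2-fold and the dashed line the median of all genes; 50 of 64 points lie below 0 and 5 pass the lower 2-fold line.

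In the IgG libraries the same comparison gave none of 52 members as higher or lower by 2-fold, against 2.77% higher and 3.8% lower of 3029 genes, and a median of -0.03 against -0.07. The SF3A and SF3B genes ranged there from -0.85 for SF3A1 to 0.80 for SF3B3. The change of the EXOSC10 to IgG ratio with doxycycline had a median of -0.45 over 52 members, against -0.14 over 2948 genes. In the bands of reads used above, from lowest to highest, members had a median change of 0.19, 0.01, -0.54, -0.39 and -0.67. All genes had -0.02, -0.07, -0.12, -0.16 and -0.30. The change was at least 2-fold lower in 4 members and higher in none, where 10.9% of all genes were lower and 4.75% higher. The 4 were HNRNPDL (-1.45, interval -1.80 to -1.12), SNRPD1 (-1.36, -1.90 to -0.86), SRSF1 (-1.13, -1.28 to -0.99) and SRSF2 (-1.02, -1.16 to -0.89). HNRNPDL, at chr4:82422564-82430462, had 26.3 and 47.5 scaled CPM in the doxycycline and untreated EXOSC10 libraries, against 110 and 71.9 in the doxycycline and untreated IgG libraries. SNRPD1 had 9.69 and 16.0 scaled CPM with EXOSC10 against 62.7 and 39.8 with IgG. In these 4 genes the doxycycline value was the lower one with EXOSC10 and the higher one with IgG. All 4 turn to positive values with scaling to total reads, between 0.22 and 0.65.

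The additive limma test of doxycycline, with the antibody as covariate, called 0 of 70 members and 0 (0%) of all 9608 genes in either direction. The smallest adjusted p of a member was 0.84, and 2 members had an unadjusted p under 0.05.

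The table lists several unnamed entries for many of these genes, which are numbered here in their order in the table, and the reads of some genes were spread over them differently between libraries. They hold fractional reads and are not named as isoforms. In SRSF7, entry 1 held 63.5% of the gene's reads in the doxycycline EXOSC10 library and 25.3% in the untreated EXOSC10 library, against 17.6% and 24.0% in the doxycycline and untreated IgG libraries. In SRSF6, entry 1 held 91.8% and 55.0% with EXOSC10, against 60.2% and 70.9% with IgG. In both genes the doxycycline EXOSC10 library stood highest.

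Entry 3 of SRSF1 held 31.7% and 15.3% of the reads with EXOSC10 in doxycycline-treated and untreated cells, against 7.57% and 9.37% with IgG. Entry 3 of HNRNPC held 39.8% and 12.3% with EXOSC10, against 13.0% and 23.6% with IgG. In SRSF5 the untreated EXOSC10 library was the one apart, with 8.72% of reads on entry 3, against 49.8% in the doxycycline EXOSC10 library and 46.7% and 46.6% in the doxycycline and untreated IgG libraries. SRSF2 differed little, with 84.7% and 85.2% on entry 1 with EXOSC10, against 90.3% and 91.9% with IgG. These genes were chosen after their values were seen. The effective number of entries, the inverse of the summed squared shares, was higher in the doxycycline than in the untreated EXOSC10 library for 22 of 30 members with several entries and at least 100 reads in every library (73.3%), and for 408 of 801 genes (50.9%). The medians over the 30 members ran the other way, 1.64 with doxycycline and 1.82 without.

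**Figure D5:**
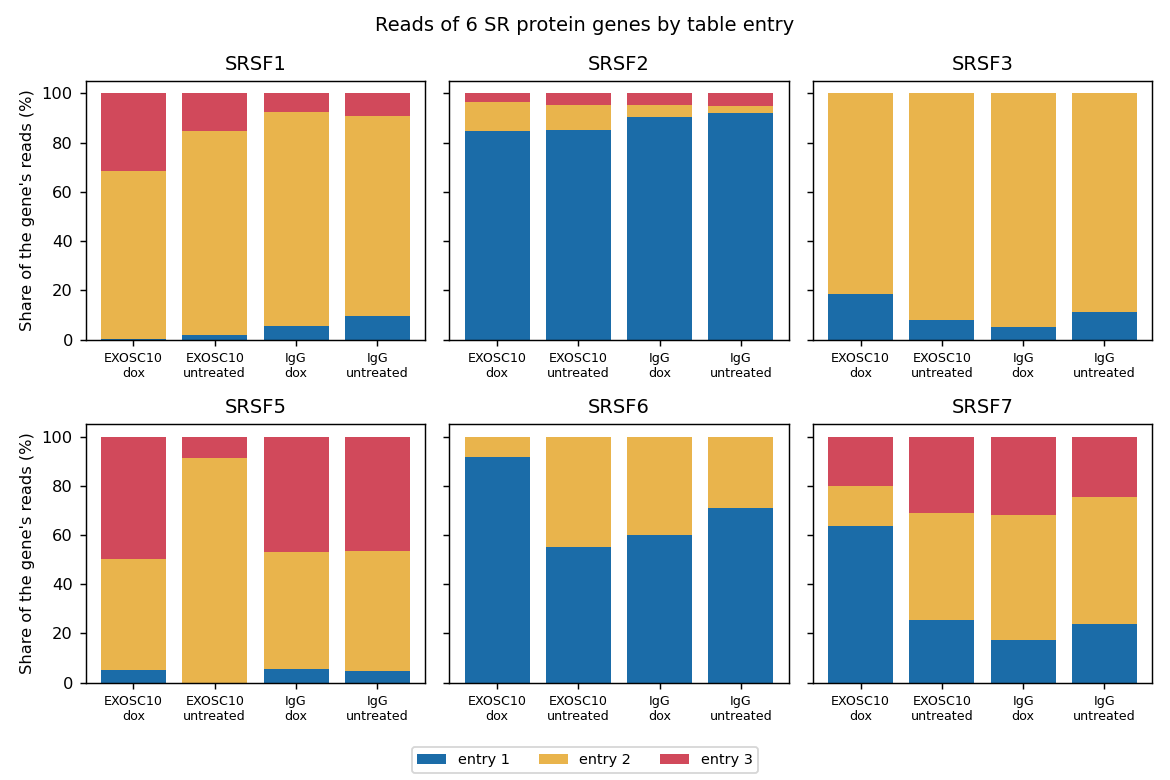
Share of each gene's reads on each table entry (percent, stacked to 100, y axis) in the 4 libraries (x axis) for 6 SR protein genes. Entry 1 of SRSF6 and SRSF7 is largest in the doxycycline EXOSC10 library, and entry 3 of SRSF5 is smallest in the untreated EXOSC10 library.

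Several members share sequence with close copies, and their reads can be divided between them. Summing did not move the doxycycline to untreated EXOSC10 ratio across 2-fold for HNRNPA1 with HNRNPA1L2 (-0.17), HNRNPC with the 3 HNRNPCL genes (0.45), U2AF1 with U2AF1L5 (0.58), HNRNPUL2 with HNRNPUL2-BSCL2 (-0.81) or SRSF2 with SRSF8 (-0.72). SNRPB summed with SNRPN gave -0.65, where SNRPN alone had been called lower. In all, 18 members overlap another gene of the table.

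Other splicing genes were taken as lists of the remaining spliceosome proteins (69 genes) and of other splicing regulators (53 genes). With doxycycline, EXOSC10 over IgG had a median of -0.42 over 44 remaining spliceosome genes, with 15 lower and 2 higher, and of -1.42 over 47 regulators, with 27 lower and 1 higher. In untreated cells the median was -0.93 over 26 spliceosome genes, with 12 lower and 0 higher, and -1.36 over 43 regulators, with 27 lower and 0 higher. The lowest values with doxycycline were those of CELF2, a regulator of alternative splicing (-4.07), the spliceosome disassembly helicase DHX15 (-3.42) and the SR protein kinase CLK3 (-2.94). CELF2 held 209 and 178 reads in the doxycycline and untreated EXOSC10 libraries, against 867 and 395 in the doxycycline and untreated IgG libraries. The highest were SAFB, a nuclear matrix RNA-binding protein (2.72), the Sm-like protein LSM4 (1.27) and SNRNP48 of the minor spliceosome (1.12). SAFB rests on 10.2 reads in the doxycycline IgG library.

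Between the EXOSC10 libraries, 2 of 45 remaining spliceosome genes were higher with doxycycline, SNRNP48 (2.09, with 146 and 12 reads) and SMNDC1 (1.13, with 91 and 15 reads), and RBM22 was lower (-1.21). Of 47 regulators, CELF2 (-1.17) and RBM5 (-1.002) were lower and none was higher. Over all genes 5.83% were higher and 4.19% lower, and nothing about the lists is read from these counts. The medians were -0.12 for the spliceosome genes and -0.35 for the regulators. Of 42 regulators measured in the IgG libraries, TIA1 was higher with doxycycline (1.12). By limma, 14 of 64 spliceosome genes and 30 of 52 regulators were lower with EXOSC10 and none was higher.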

How the data were processed

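RNA recovered with EXOSC10 antibody or IgG was sequenced from LM2-4175 cells with and without doxycycline, 1 library for each of the 4 groups. The authors deposited CPM values per table entry, with a constant of 0.0001 on each, as read from the values; STAR, Partek and hg38 are named per the submitters' processing notes, with the counting rule and strand setting not given in the sources used here. Entries of a symbol (24015 entries, 12838 symbols) were summed after the constant was removed. Reads were estimated from the CPM worth of 1 read in each library. Between 67.6% and 74.0% of genes were whole within 0.05 reads, so no count model was used and the count test foreseen for whole counts was not run. Of the 76 members, 43 had whole reads in all 4 libraries.

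TMM scaling trimmed 30% of ratios and 5% of levels. Ratios are log2(scaled CPM + 0.2), which understates the change of low genes. A call needed 2-fold and 100 reads, in each antibody's pair for the change of the ratio, and intervals are exact 95% Clopper-Pearson on estimated reads. limma 3.58.1 in R 4.3.3, with a trend, used genes with at least 10 reads in 2 libraries and all 4 libraries. The residual of the additive fit is the change of the EXOSC10 to IgG ratio between treatments, and its variance is moderated across genes. The p-values and SE thus measure no spread between replicates, and differences between these libraries may be technical. The procedures were tested on simulated data. Coordinates and start sequences are RefSeq, GRCh38.p14, and 74 members matched by symbol (not PRPF4B and U2AF1L5), of which 73 are protein coding.

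Values are given for the highest and lowest member of each group, for members called between treatments, for the smallest limma p-values, for the 3 highest and lowest other splicing genes called, and for the 5 genes of nearest pattern; further members are given as examples, and 1 member is counted but its values are not reported here. Members and lists were chosen with earlier results of these data known. Alternatives were the scaling, pseudocount, minimum of reads, whole reads only, limma's filter and covariate, and, chosen after seeing the data, sums with copies and overlapping genes.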

Additional observations from a re-analysis of the deposited data

How the results depend on the processing

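No analysis paired by replicate number was possible because each group has 1 library, and for the same reason no replicate could be left out. limma's antibody test compares the antibodies within each treatment through its covariate, and without it 37 members were lower in place of 38. Directions depend on the scaling. With total counts, members were 14 higher and 0 lower in EXOSC10 with doxycycline, 11 lower in IgG with doxycycline, 4 higher and 11 lower for EXOSC10 over IgG untreated, 35 higher and 0 lower with doxycycline, and 34 higher and 0 lower for the change of the ratio, where HNRNPDL was 0.22, SNRPD1 0.29, SRSF1 0.54 and SRSF2 0.65; limma's antibody test gave 1 higher and 0 lower. With reads outside ribosomal RNA, the counts were 1 higher and 2 lower for EXOSC10 with doxycycline, 7 and 6 for EXOSC10 over IgG untreated, 10 and 19 with doxycycline, and 12 and 13 by limma. These follow from the factors of each scaling, which shift all genes the same way. Over all genes, total counts gave 3150 higher and 8 lower of 6585 in EXOSC10 with doxycycline, and 803 of 3029 lower in IgG. For EXOSC10 over IgG they gave 1134 higher and 523 lower of 3622 untreated, and 5080 and 34 of 6279 with doxycycline. The change had 2276 higher and 11 lower of 2948 genes, and limma's antibody test 515 and 6 of 9608. In the order of the members' counts, reads outside ribosomal RNA gave 587 and 156, 1386 and 305, 3258 and 662, and 3505 and 589. The median of ratios gave 1 higher for EXOSC10 over IgG with doxycycline and 8 lower for the change. A pseudocount 5 times larger gave 2 lower for EXOSC10 with doxycycline and 1 higher for EXOSC10 over IgG with doxycycline. A minimum of 20 reads gave 2 higher for EXOSC10 with doxycycline, 2 lower for IgG with doxycycline, 5 higher for EXOSC10 over IgG with doxycycline, and 2 higher and 9 lower for the change, and put the members' median for EXOSC10 over IgG untreated -1.07 from that of all genes. A minimum of 500 reads gave 1 lower for EXOSC10 with doxycycline, 0 higher and 22 lower for EXOSC10 over IgG untreated with a median difference of 0.0144, and 0 higher with doxycycline with a median difference of -0.94; fewer genes reach it. Genes with whole reads only, 43 of 76 members, gave 2, 20, 25 and 2 lower for EXOSC10 with doxycycline, EXOSC10 over IgG untreated, EXOSC10 over IgG with doxycycline and the change, and 20 lower by limma. In the other 97 values for the comparisons, counts of members stayed within 1.5 times, and the members' median relative to all genes kept its sign. Depth limits the SNRP and U2AF groups most, with 3 of 12 and 1 of 4 genes at 100 reads in both antibody pairs.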

Other observations

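Across the 43 members with at least 100 reads in every library, the median profile, centred on the log2 scale, was -1.04 in the doxycycline EXOSC10 library and -0.51 in the untreated EXOSC10 library, against 0.74 for IgG with doxycycline and 0.78 for IgG without. Among 1249 other genes of that depth, the nearest to this profile were PPP1R14B, ZFR, CALU, ATP1B1 and KCNK1, at Euclidean distances of 0.057 to 0.091 over the 4 libraries. The members themselves lay at 0.12 to 1.82 from it. PPP1R14B, a phosphatase inhibitor, had 563 and 309 reads in the doxycycline and untreated EXOSC10 libraries, against 466 and 386 reads in the doxycycline and untreated IgG libraries, with EXOSC10 over IgG of -1.76 with doxycycline and -1.33 without on the log2 scale.

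A few members had too few reads for a call and no read in 1 of the libraries compared. SRSF12 had 20 reads in the doxycycline EXOSC10 library and 0 in the untreated one, which is at least 2.49-fold higher when 3 reads are put in place of the 0. SNRPG, an Sm ring protein, had 61.2 reads in the doxycycline EXOSC10 library and 0 in the doxycycline IgG library, at least 4.97-fold higher, and 28.5 and 8 reads in the untreated EXOSC10 and IgG libraries. HNRNPCL2 and HNRNPCL4, near copies of HNRNPC, had 15.4 and 12.8 reads in the doxycycline EXOSC10 library and 0 in the untreated EXOSC10 library, at least 1.93-fold and 1.602-fold higher, and their reads cannot be separated from those of HNRNPC.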
